A study of Saccharomyces cerevisiae with 4 samples.

Results

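Chaperone and heat shock protein genes of budding yeast (Saccharomyces cerevisiae) were followed in a comparison of a bre1 strain with wild type. The 45 genes were taken by systematic name from the 5500 reading frames listed on the arrays, and cover the Hsp104, Hsp90, Hsp70, Hsp110 and Hsp40 classes, small heat shock proteins, co-chaperones, the CCT ring and the chaperones of the endoplasmic reticulum and mitochondria. Polyadenylated RNA of bre1 cells and of wild-type cells was hybridised together on 4 2-colour arrays, with bre1 RNA in Cy3 on arrays 1 and 3 and in Cy5 on arrays 2 and 4. BRE1 encodes the ubiquitin ligase of histone H2B. The labels give neither the kind of bre1 mutation nor the strain background, mating type, culture medium or temperature, and are silent on whether each array had its own pair of cultures. The p-values therefore cover array-to-array spread alone, which may be technical. In RNA of whole cultures, fewer cells making a transcript and less transcript per cell cannot be told apart.

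Chaperones bind unfolded proteins and help them fold, keep them from clumping or pull them out of aggregates. Hsp70 proteins work in cycles of ATP use that are driven by J-proteins (Hsp40) and reset by exchange factors such as Hsp110, and they pass some clients on to Hsp90 or to the barrel-shaped chaperonins. In yeast some chaperone genes are active during normal growth and help nascent proteins, while others are kept low and are switched on by heat shock factor Hsf1 or by the stress factors Msn2 and Msn4.

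Each array gave a log ratio per reading frame, read here as the log2 ratio of bre1 over wild type. That direction is likely and not settled: it rests on the sample descriptions, which name bre1 first, and on BRE1 itself. BRE1 was at -1.65 and -3.17 on arrays 1 and 3 and had no value on arrays 2 and 4. On the opposite reading every higher value below would be a lower one. BRE1 gives no check of the direction on arrays 2 and 4. The means and tests below take the ratios to run the same way on all 4 arrays. All 45 genes had a value on at least 1 array; 34 had values on all 4 and entered the test, and 11 had values on 1 to 3 arrays and are described without a test. Of all frames, 3840 had values on all 4 arrays, and array medians over these lay between -0.08 and 0.10. Arrays of the same dye orientation correlated at Pearson r of 0.75 (arrays 1 and 3) and 0.54 (arrays 2 and 4), and arrays of opposite orientation at 0.20 to 0.65 (across genes, which are not independent replicates).

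The first question was which chaperone transcripts differed between bre1 and wild type. HSP10, which encodes the lid of the mitochondrial chaperonin, rose, and HSP26 and SSA4, a small heat shock protein gene and a heat-inducible Hsp70 gene, fell. These were 3 of the 34 tested genes (8.82%), against 10.7% of all 3840 genes called by the same limma fit at an adjusted p under 0.05. By direction, 1 of 34 was higher (2.94%, against 5.89% of all genes) and 2 of 34 were lower (5.88%, against 4.79%). The share of chaperone genes called was therefore near the background. Their median log2 ratio was 0.08, beside 0.02 for all tested genes, and 20 of 34 had a mean above 0 (58.8%, beside 52.6% of all genes). An unadjusted p under 0.05 was found for 8 of the 34 (23.5%) and for 1158 of all 3840 genes (30.2%).

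**Figure D1:**
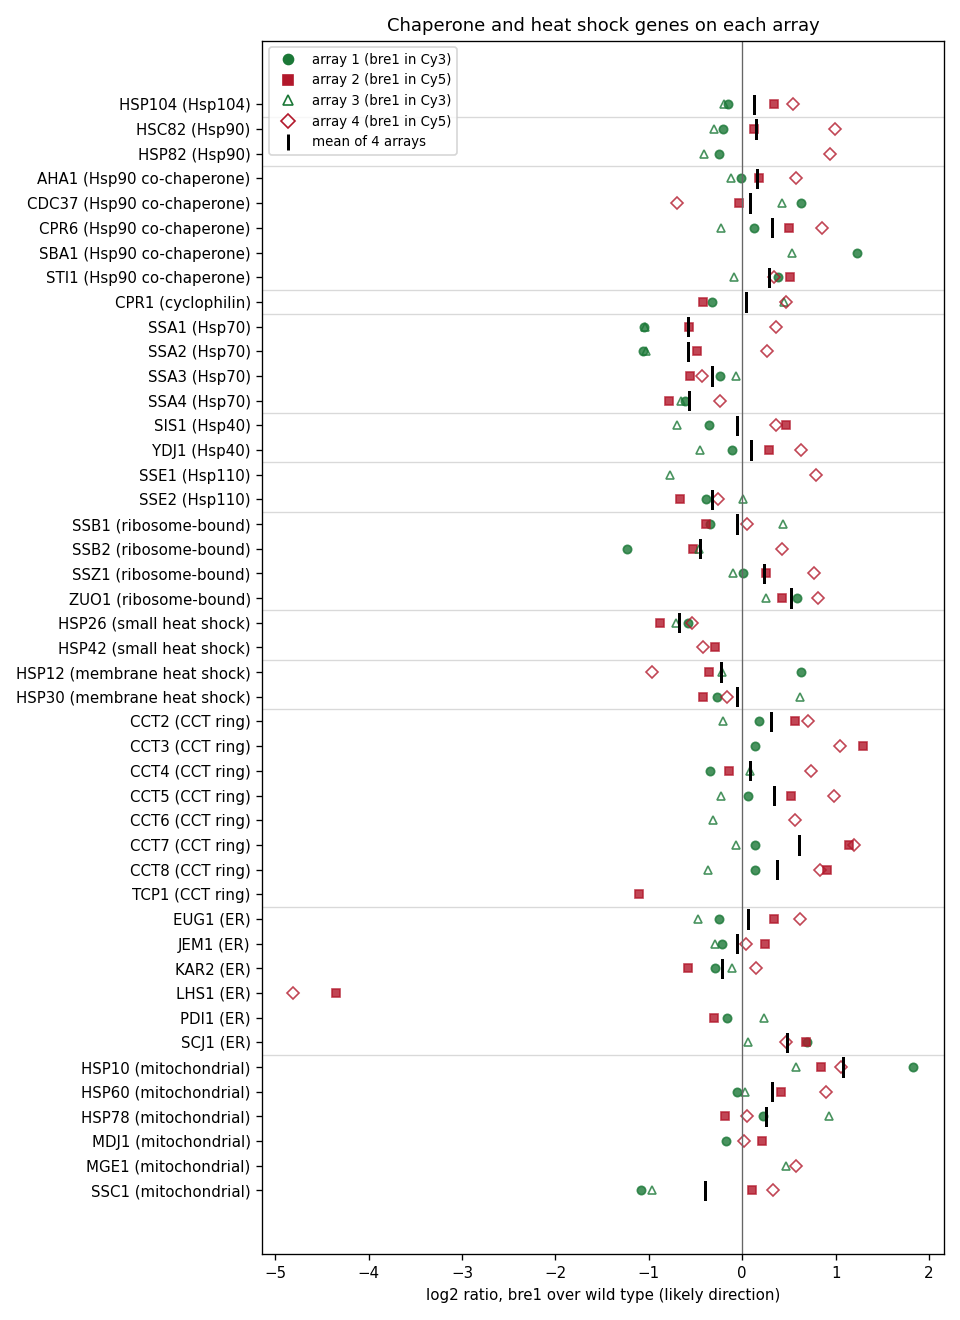
The log2 ratio of each of the 45 genes on each array (horizontal axis, bre1 over wild type in its likely direction), with 1 line per gene grouped by role. Filled or open circles and triangles in green are arrays with bre1 in Cy3, squares and diamonds in red are arrays with bre1 in Cy5, and black bars are means of genes with 4 values. HSP10 lies above 0 and HSP26 and SSA4 lie below 0 on every array, and LHS1 stands alone near -4.6.

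HSP10 (YOR020C) had log2 ratios of 1.83, 0.85, 0.58 and 1.06 on arrays 1 to 4. It was above 0 on every array and highest on array 1. The mean of 1.08 ± 0.54 (SD, n = 4) is a 2.11-fold higher level in bre1 (limma adjusted p = 0.0217), and HSP10 was the only tested chaperone gene with a mean of at least 1 in size. The call was lost without array 1 (log2 ratio 0.83, adjusted p = 0.0702) and without array 2 (1.16, adjusted p = 0.0840). Of all genes, 54 were called without array 1 and 0 without array 2, against 410 with all 4 arrays. With 0 called, the loss without array 2 says nothing particular about HSP10. HSP10 is a short gene of 321 bp. With the trend of the ratio on gene length removed, its mean was 0.76 (adjusted p = 0.0347).

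HSP26 (YBR072W) encodes a small heat shock protein that forms large shells around unfolding clients. It had log2 ratios of -0.58, -0.88, -0.71 and -0.54 on arrays 1 to 4. All lay below 0 within a narrow band, and neither dye orientation stood apart from the other. The mean of -0.68 ± 0.16 (SD, n = 4) is a 1.60-fold lower level in bre1 (limma adjusted p = 0.0287). The call was lost without array 1, 2 or 3, where the mean stayed between -0.71 and -0.61 and the adjusted p was 0.0961, 0.137 and 0.0708. These 3 fits called 54, 0 and 187 of all genes, against 410 with all 4 arrays. HSP42, the other small heat shock protein gene, had values only on the arrays with bre1 in Cy5, -0.29 on array 2 and -0.42 on array 4.

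SSA4 (YER103W) encodes an Hsp70 that is scarce in unstressed cells and strongly induced by heat. Its log2 ratios were -0.61, -0.78, -0.65 and -0.24, all below 0 and closest to it on array 4. The mean of -0.57 ± 0.23 (SD, n = 4) is a 1.49-fold lower level (limma adjusted p = 0.0496), which is at the edge of the threshold. Without array 1, 2 or 3 the adjusted p was 0.179, 0.193 and 0.123, with means from -0.56 to -0.50. Of all genes, these 3 fits called 54, 0 and 187, against 410 with all 4 arrays. The call was also lost with genes on at least 3 arrays admitted (adjusted p = 0.0577), with the length trend removed (0.0598) and with a robust variance prior (0.0511).

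**Figure D2:**
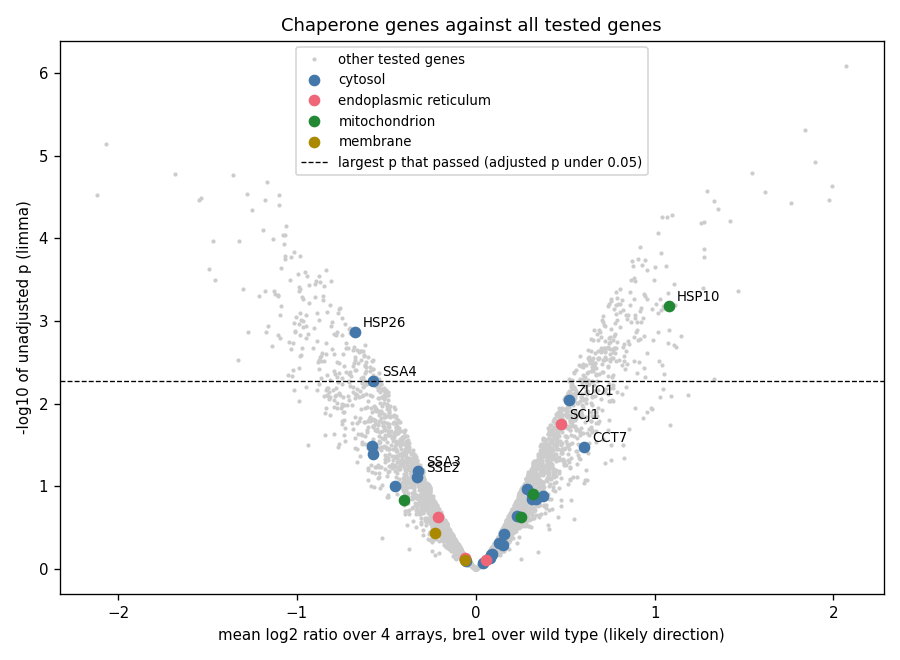
The mean log2 ratio over 4 arrays (horizontal) against -log10 of the unadjusted limma p (vertical) for the 3840 tested genes in grey and the 34 tested chaperone genes, coloured by compartment. HSP10, HSP26 and SSA4 lie on or above the dashed line at the largest p that passed. ZUO1 lies under it, and SCJ1 lies further under it.

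Among cytosolic Hsp70 genes of the SSA family, the heat-inducible SSA3 resembled SSA4 in sign. SSA3 was at -0.24, -0.55, -0.07 and -0.43 on arrays 1 to 4, with a mean of -0.32 ± 0.21 (SD, n = 4) that did not pass (limma adjusted p = 0.189). SSA1 and SSA2, which supply most Hsp70 of growing cells, showed another pattern. SSA1 was at -1.05, -0.57, -1.05 and 0.37 and SSA2 at -1.06, -0.49, -1.03 and 0.26. Both were lowest on the arrays with bre1 in Cy3, lower than 0 on array 2 and above 0 on array 4. Their means of -0.58 ± 0.67 and -0.58 ± 0.62 (SD, n = 4) were as low as that of SSA4, but with a spread that kept them from passing (limma adjusted p = 0.147 and 0.129). In the limma fit without array 4, SSA1 was at -0.89 (adjusted p = 0.0122) and SSA2 at -0.86 (adjusted p = 0.0161). That fit called 677 of all genes, against 410 with all 4 arrays. Both also passed in limma with a dye term in the fit (adjusted p = 0.0452 and 0.0330), which called 897 of all genes.

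The Hsp110 genes encode exchange factors for Hsp70. SSE2, the heat-inducible one, was at -0.39, -0.67, 0.01 and -0.25, with a mean of -0.33 ± 0.28 (SD, n = 4, limma adjusted p = 0.209). SSE1, the main Hsp110 of growing cells, had values on arrays 3 and 4 only, and they were of opposite sign, -0.77 and 0.79. The J-protein genes YDJ1 and SIS1, whose products drive the Hsp70 cycle, had means of 0.09 ± 0.47 and -0.05 ± 0.56 (SD, n = 4). Both were below 0 on arrays 1 and 3 and above 0 on arrays 2 and 4. HSP104, the disaggregase that works with Hsp70, split in the same way, at -0.16 and -0.20 on arrays 1 and 3 and at 0.34 and 0.54 on arrays 2 and 4.

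The Hsp90 genes HSP82 and HSC82 encode nearly the same protein, the first induced by heat and the second made at all times. HSC82 was at -0.20, 0.12, -0.30 and 0.99 on arrays 1 to 4, with a mean of 0.15 ± 0.59 (SD, n = 4, limma adjusted p = 0.684). HSP82 had no value on array 2 and was at -0.24, -0.41 and 0.94 on arrays 1, 3 and 4. The Hsp90 genes thus ran below 0 on the arrays with bre1 in Cy3 and high on array 4.

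Of the 5 Hsp90 co-chaperone genes, 4 were tested and none passed in limma, nor had any an unadjusted p under 0.05 (30.2% of all genes had). Their means were all above 0 (52.6% of all genes had a mean above 0), with a median of 0.22. CPR6, a cyclophilin that binds Hsp90, was at 0.31 ± 0.47, STI1, the bridge between Hsp70 and Hsp90, at 0.29 ± 0.26, and AHA1, an activator of the Hsp90 ATPase, at 0.16 ± 0.31 (SD, n = 4). CDC37, which delivers protein kinases to Hsp90, ran against the others by dye: it was at 0.63 and 0.42 on arrays 1 and 3 and at -0.04 and -0.70 on arrays 2 and 4. SBA1, the yeast p23 protein gene, had values only on arrays 1 and 3, 1.23 and 0.53. The cyclophilin gene CPR1, whose product is the target of cyclosporin, was below 0 on arrays 1 and 2 and above 0 on arrays 3 and 4, with a mean of 0.04 ± 0.48 (SD, n = 4) that turned to -0.20 with the length trend removed.

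On the ribosome, the Hsp70 proteins Ssb1 and Ssb2 bind nascent chains and are driven by the complex of Zuo1, a J-protein, and Ssz1, an Hsp70 relative. ZUO1 was above 0 on every array, at 0.59, 0.43, 0.26 and 0.81. Its mean of 0.52 ± 0.23 (SD, n = 4, 1.43-fold) did not pass (limma adjusted p = 0.0625), but it passed with the length trend removed (0.0414) and with a dye term (0.0326). These fits called 473 and 897 of all genes, against 410 in the main fit. SSZ1 was at 0.01, 0.25, -0.09 and 0.76 and did not pass (mean 0.23 ± 0.38, SD, n = 4, limma adjusted p = 0.416). The genes of the Hsp70 proteins did not share this sign. SSB2 was at -1.23, -0.52, -0.47 and 0.43 (mean -0.45 ± 0.68, SD, n = 4), and SSB1 at -0.34, -0.38, 0.43 and 0.05 (mean -0.06 ± 0.38). Neither passed, although SSB2 did so without array 4 (log2 ratio -0.74, limma adjusted p = 0.0329). That fit called 677 of all genes, against 410 with all 4 arrays.

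The CCT ring is the cytosolic chaperonin that folds actin and tubulin, built of CCT2 to CCT8 and of TCP1, the gene of its first subunit. Of its 8 genes 5 were tested, and all 5 had a mean above 0 (52.6% of all genes had), with a median of 0.34. CCT4 turned to -0.01 with array weights and to -0.13 without array 4. Without array 4 the median was 0.18, and without array 3 it was 0.52. None passed in limma, and 1, CCT7, had an unadjusted p under 0.05 (30.2% of all genes had). CCT7 was at 0.13, 1.14, -0.06 and 1.20, with a mean of 0.60 ± 0.66 (SD, n = 4, 1.52-fold, limma adjusted p = 0.130), and passed with a dye term (adjusted p = 0.0160). The fit with a dye term called 23.4% of all genes, against 10.7% without it. The other tested subunits had means of 0.38 for CCT8, 0.34 for CCT5, 0.31 for CCT2 and 0.09 for CCT4. Over the ring genes, the median was 0.13 and -0.20 with bre1 in Cy3 (arrays 1 and 3), and 0.57 and 0.83 with bre1 in Cy5. The height of the ring genes thus came from the arrays with bre1 in Cy5. CCT3, without a value on array 3, was at 0.13, 1.29 and 1.04, and CCT6 was at -0.31 and 0.56 on arrays 3 and 4. TCP1 had a single value, -1.11 on array 2, where each of the 5 tested subunits and CCT3 was at -0.14 or above.

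In the endoplasmic reticulum, 4 of 6 genes were tested and none passed in limma. An unadjusted p under 0.05 was found for 1, SCJ1 (30.2% of all genes had one). Their median was 0.00, beside 0.09 for the 24 tested cytosolic genes. SCJ1, a J-protein gene of this compartment, was above 0 on every array, at 0.69, 0.68, 0.07 and 0.47 (mean 0.48 ± 0.29, SD, n = 4, limma adjusted p = 0.0914). JEM1, another J-protein gene there, was at -0.06 ± 0.24 and KAR2, the Hsp70 of this compartment, at -0.21 ± 0.31 (SD, n = 4). EUG1, a relative of protein disulphide isomerase, was below 0 on arrays 1 and 3 and above it on arrays 2 and 4, with a mean of 0.06 ± 0.51 (SD, n = 4). PDI1, the isomerase itself, was at -0.16, -0.30 and 0.24 on arrays 1 to 3.

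LHS1 (YKL073W), which encodes an Hsp110-like exchange factor for Kar2, stood apart from all other chaperone genes. It had no value on arrays 1 and 3. Its log2 ratios of -4.35 on array 2 and -4.80 on array 4 were the lowest of any frame on those arrays. The next lowest frame was at -2.54 on array 2 and -3.29 on array 4. The mean of -4.58 ± 0.32 (SD, n = 2) corresponds to a 23.9-fold lower level on the reading of bre1 over wild type. LHS1 was outside the test, and its value rests on a single dye orientation, the one in which BRE1 had no value.

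In mitochondria, Ssc1 is the Hsp70 of the import motor, Mdj1 and Mge1 are its J-protein and exchange factor, Hsp60 and Hsp10 form the chaperonin and Hsp78 is the disaggregase. Of 6 genes 4 were tested, 1 rose (HSP10) and none fell, where 5.89% and 4.79% of all genes did. Their median was 0.29. HSP60, the barrel of the chaperonin, was at -0.05, 0.42, 0.03 and 0.90 with a mean of 0.32 ± 0.43 (SD, n = 4, 1.25-fold), which did not pass (limma adjusted p = 0.282). The barrel gene was thus below the lid gene on each of the 4 arrays. The genes differ in length, HSP10 with 321 bp and HSP60 with 1719 bp. With the length trend removed, their means were 0.76 and 0.40. SSC1 was at -1.08 and -0.96 on arrays 1 and 3 and at 0.11 and 0.32 on arrays 2 and 4 (mean -0.40 ± 0.72, SD, n = 4, limma adjusted p = 0.316). HSP78 ran the other way, higher on arrays 1 and 3 (0.23 and 0.93) than on arrays 2 and 4 (-0.19 and 0.06). MGE1 was at 0.47 and 0.58 on arrays 3 and 4, and MDJ1 at -0.18, 0.21 and 0.02 on arrays 1, 2 and 4.

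HSP12 and HSP30 encode stress-induced proteins of membranes, the first a small protein that stabilises membranes and the second a regulator of the plasma membrane proton pump. HSP12 ranged from 0.63 on array 1 to -0.97 on array 4, with a mean of -0.22 ± 0.66 (SD, n = 4). With the length trend removed, the mean of HSP12, a gene of 330 bp, was -0.53 (limma adjusted p = 0.0919), and with array weights it was -0.10. HSP30 was at -0.06 ± 0.46 (SD, n = 4) and above 0 only on array 3. Neither had an unadjusted p under 0.05 in limma (30.2% of all genes had).

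**Figure D3:**
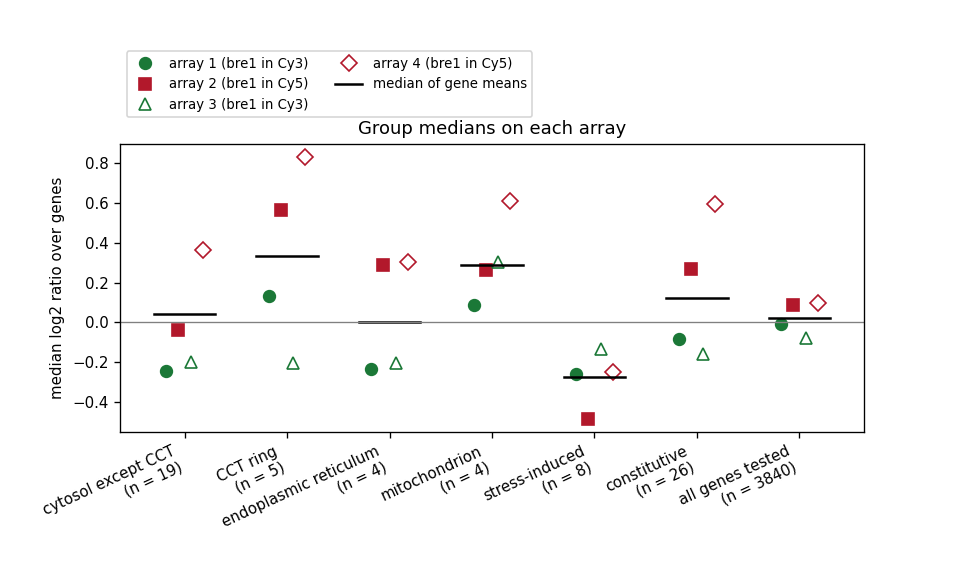
The median log2 ratio over the tested genes of each group (vertical axis) on each array, with the number of genes under each name; symbols are arrays as labelled and black bars are medians of the gene means. The stress-induced genes lie below 0 on all 4 arrays. Apart from the stress-induced and mitochondrial genes, every group lies higher on arrays 2 and 4 than on arrays 1 and 3, all tested genes included.

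By compartment, the median of the gene means was 0.09 in the cytosol (24 genes), 0.00 in the endoplasmic reticulum (4 genes) and 0.29 in mitochondria (4 genes). The difference between the endoplasmic reticulum and the cytosol, taken between group medians on each array, was -0.05, 0.14, -0.0012 and -0.20, with a mean of -0.03 ± 0.14 (SD, n = 4). It was smaller than its spread over arrays. Mitochondrial genes were above cytosolic genes on each array, by 0.27, 0.12, 0.51 and 0.11 (mean 0.25 ± 0.19, SD, n = 4). This difference was 0.11 with genes on at least 3 arrays admitted and 0.16 without array 3. The median of the cytosolic genes turned to -0.09 without array 4. These are descriptions of a few genes each, with no test.

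The stress-induced class was a choice made here of 10 genes: HSP104, HSP82, SSA3, SSA4, SSE2, HSP26, HSP42, HSP12, HSP30 and HSP78. It was not defined by these arrays, and genes outside it may be induced by stress too. Of the 8 tested, 6 had a mean below 0 (47.4% of all genes had) and 2 fell, SSA4 and HSP26 (4.79% of all genes fell). The median was -0.27, and -0.16 without array 4. The median lay at -0.26, -0.48, -0.14 and -0.25 on arrays 1 to 4. The other 35 genes, HSP10 and SSA1 among them, are called the constitutive class here. The name means only that they were not among those 10, and their induction by stress was not examined. Of its 26 tested genes, 1 rose and none fell, where 5.89% and 4.79% of all genes did. Its median was 0.12, with array medians of -0.08, 0.27, -0.16 and 0.60. Without array 4 the median of the constitutive class was -0.04. The stress-induced class was lower than the constitutive class by 0.17, 0.75 and 0.85 on arrays 1, 2 and 4, and on array 3 it was higher, by 0.02. The mean difference was -0.44 ± 0.43 (SD, n = 4), about the size of its spread. The difference was large on the arrays with bre1 in Cy5 (2 and 4) and small on those with bre1 in Cy3 (1 and 3). What the dye orientation contributes to it was not tested. With SSA1 moved to the stress-induced class and HSP82 to the constitutive one, the mean difference was -0.50.

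That contrast also depended on which constitutive genes were taken. Against the constitutive cytosolic Hsp90 and Hsp70 genes alone (HSC82, SSA1, SSA2, SSB1 and SSB2, a choice made after the values were seen), the median of the constitutive genes was -0.45 and the mean difference was 0.13, with the opposite sign. The low median came from SSA1, SSA2 and SSB2, none of which passed over 4 arrays, while HSC82 had a mean above 0. The values of the near-identical SSA1 and SSA2 may not be separate measurements. The CCT ring lay above the rest of the cytosolic genes by 0.37, 0.60 and 0.47 on arrays 1, 2 and 4, and the difference was -0.0027 on array 3.

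The order of the arrays was then set against the dye. In 17 of the 34 tested genes (50.0%) both arrays with bre1 in Cy5 were above both arrays with bre1 in Cy3, against 35.9% of all tested genes; the opposite order was found in 4 (11.8%), against 16.5% of all. Of the 17 genes, 16 were of the constitutive class (26 tested genes) and 1, HSP104, was of the stress-induced class (8 tested genes). The median difference between the orientations was 0.44 over the chaperone genes and 0.14 over all genes. It was 0.66 in the constitutive class and -0.30 in the stress-induced class. Only 6 of 34 genes kept 1 sign on all 4 arrays (17.6%), against 35.7% of all genes. These were HSP10, ZUO1 and SCJ1 above 0 (8.82%, against 19.1% of all genes) and HSP26, SSA4 and SSA3 below 0 (8.82%, against 16.6%).

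**Figure D4:**
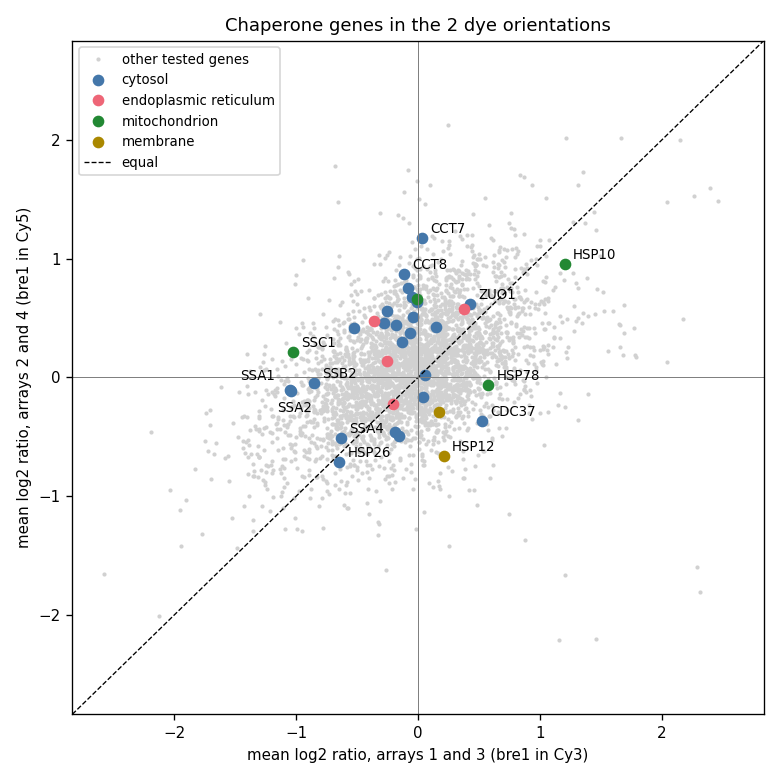
The mean log2 ratio on arrays 1 and 3 (bre1 in Cy3, horizontal) against that on arrays 2 and 4 (bre1 in Cy5, vertical) for tested genes, with chaperone genes coloured by compartment and the dashed line marking equal values. CCT7, CCT8, SSC1, SSA1 and SSA2 lie far above the line, while HSP26, SSA4 and ZUO1 lie near it.

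With a dye term in the fit, which takes this difference out of the error, 7 of 34 chaperone genes passed (20.6%), against 23.4% of all genes. The 3 higher genes were HSP10, ZUO1 and CCT7 (8.82%, against 12.4% of all genes), and the 4 lower genes were HSP26, SSA4, SSA1 and SSA2 (11.8%, against 10.9%). SSA1 and SSA2 are counted here as separate genes, although their values may not be separate measurements. The dye term itself passed in none of the 34 genes and in 4 of all 3840. What the dye orientation contributes to the means was not tested beyond this fit.

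Pairs of related genes were then compared within each array. Of 7 pairs, 4 had values for both genes on all arrays, and no difference could pass, since the smallest p that the exact sign-flip test of 4 arrays allows is 0.125. SSA1 and SSA2 differed by 0.00 ± 0.08 (SD, n = 4, exact two-sided p = 0.875, adjusted over the 4 pairs 0.875), far less than either gene varied between arrays. HSP82 and HSC82 differed by -0.07 ± 0.03 (SD, n = 3 arrays). These genes are near-identical in sequence, so that a probe may read both and the values may not be separate measurements.

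SSB1 and SSB2, also near-identical, did not run together. SSB1 was above SSB2 by 0.89, 0.14 and 0.90 on arrays 1 to 3 and lower on array 4, where the difference was -0.37 (mean 0.39 ± 0.62, SD, n = 4, exact p = 0.375, adjusted 0.5). SSA3 was above SSA4 on arrays 1 to 3 and below it on array 4 (mean 0.25 ± 0.32, SD, n = 4, exact p = 0.25, adjusted 0.5). YDJ1 was above SIS1 by 0.25, 0.24 and 0.27 on arrays 1, 3 and 4 and below it on array 2 (mean 0.15 ± 0.22, SD, n = 4, exact p = 0.25, adjusted 0.5).

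**Figure D5:**
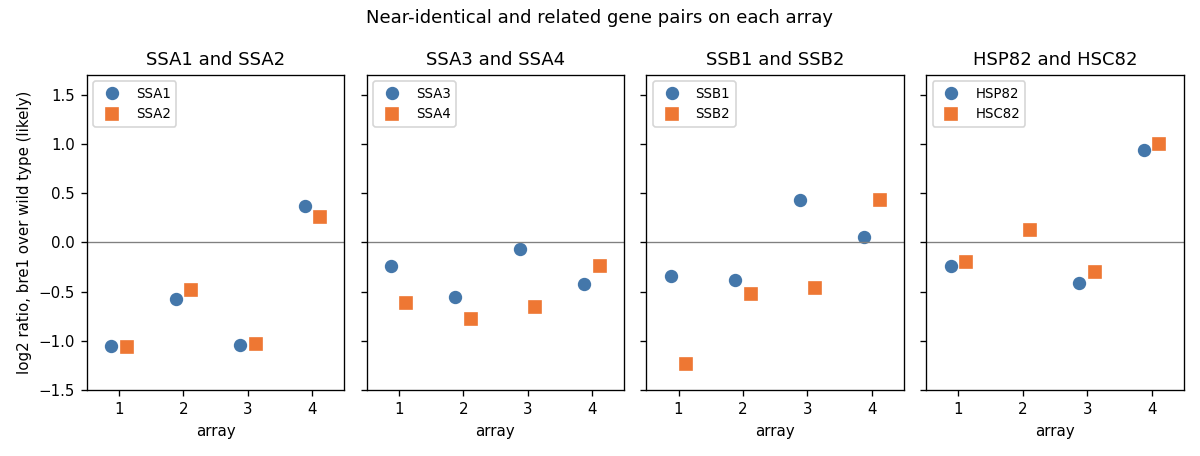
The log2 ratio (vertical axis) of the genes of 4 pairs on arrays 1 to 4 (horizontal axis), as circles for the first and squares for the second gene of each pair. SSA1 and SSA2, and HSP82 and HSC82, nearly coincide on each array, while SSB1 and SSB2 lie apart on arrays 1 and 3.

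A second list held 55 other genes of protein folding and the heat shock response, among them prefoldin subunits, peptidyl-prolyl isomerases, further J-proteins and mitochondrial proteases. Of the 33 with values on all arrays, 1 rose and none fell, where 5.89% and 4.79% of all genes did. A mean above 0 was found for 20 (52.6% of all genes had one). The median was 0.19, and 0.06 with the length trend removed. The gene that rose was GIM3, a subunit of prefoldin, the complex that hands unfolded actin and tubulin to the CCT ring. It was at 1.34, 1.24, 0.51 and 0.74, with a mean of 0.96 ± 0.40 (SD, n = 4, 1.94-fold, limma adjusted p = 0.0207). With the length trend removed, the mean of GIM3, a gene of 390 bp, was 0.68. None of the other prefoldin subunit genes had values on all arrays, and their signs were mixed. The genes of the regulators, named for their role, had small mean ratios: HSF1 was at -0.05 ± 0.26, MSN4 at -0.04 ± 0.24 and MSN2 at -0.28 ± 0.29 (SD, n = 4), and none of them passed in limma. HAC1, whose product drives the unfolded protein response of the endoplasmic reticulum, was at -1.07, -0.36 and -0.42 on arrays 1, 2 and 4 and was not tested.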

How the data were processed

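The deposited table holds 1 log ratio per reading frame and array, which was read as a log2 ratio from its range; how the authors normalized, filtered and oriented the ratios, and the log base, is not given in the sources used here. Scanner intensities were not used here, and having only 4 arrays limits the precision. Genes with values on all 4 arrays (3840) were fitted with limma 3.58.1 in R 4.3.3 (lmFit on an intercept, then eBayes), with a two-sided test of the mean against 0 and Benjamini-Hochberg adjustment over all of them; the threshold was 0.05. The fit was tried on simulated data. Groups were described by medians without a test, and pairs by an exact sign-flip test. Symbols and gene lengths came from a RefSeq gene table of assembly R64, which matched 5470 of 5500 frames; no genome build is stated for the arrays, and no coordinates are given. Any of the 45 genes could be named; of the second list, those past the threshold, with HSF1, MSN2, MSN4 and HAC1 added for their role. Genes and lists were chosen with earlier results of these data known. Alternatives left out each array, centred arrays on their median, removed a lowess trend on gene length, admitted genes on at least 3 arrays, or added a dye term, array weights or a robust prior. For the classes, SSA1 and HSP82 also changed places. Sequences are not analysed here.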

Additional observations from a re-analysis of the deposited data

Results flagged for a closer look

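Among 44 sets of 4 values that were examined for a sample far from the others, 1 was flagged. Chance alone gives about 1 in 20, or 2.2 of the 44, so 1 is no more than chance would give. It was the difference between the J-protein genes YDJ1 and SIS1, which was -0.18 on array 2 and between 0.24 and 0.27 on the other 3 arrays.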

How the results depend on the processing

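The number of genes called rested on the arrays used. Over all genes it was 410, and between 0 and 677 with 1 array left out; the count of 0 came without array 2 in limma, where 815 genes had an unadjusted p under 0.05. It was 685 with array weights and 897 with a dye term. Among chaperone genes, 1 was called higher, between 0 and 1 with 1 array left out, 2 with the length trend removed and 3 with a dye term. Lower calls numbered 2, and between 0 and 5 with 1 array left out (the 5 without array 4 were HSP26, SSA4, SSA1, SSA2 and SSB2), 1 with genes on at least 3 arrays, 1 with the length trend removed, 1 with a robust prior and 4 with a dye term. Without array 1 or 2, an unadjusted p under 0.05 was found for 17.6% and 11.8% of tested chaperone genes, against 18.8% and 21.2% of all genes. Without array 3 the share was 35.3%, against 27.0% of all genes, and without array 4 it was 26.5%, against 33.2%. With the length trend removed it was 35.3%, against 31.2%, and with a dye term 41.2%, against 39.4%. Whether the chaperone share lay above or below that of all genes thus depended on the fit. Narrowing the constitutive class, a choice made after seeing the data, moved its median to -0.45 and the difference of the stress-induced class from it to 0.13. The cause of these shifts was not tested. Under the other alternatives run, the medians by compartment and class and the differences between them moved by no more than their SD over arrays, which is wide. Without array 4, however, the constitutive median turned to -0.04, the cytosolic one to -0.09 and that of the endoplasmic reticulum to -0.11, and the median of the CCT ring was 0.18. No chaperone gene called in any of these fits changed sign. Dim spots could not be identified without intensities.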

Other observations

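LHS1 was the lowest frame on both arrays that measured it, and values on the genes beside it, read after LHS1 was seen to stand apart, are given here. By gene order, MUD2 on one side had log2 ratios of 0.11 and 0.24 on arrays 2 and 4 and, like LHS1, no value on arrays 1 and 3. AAN1, beyond MUD2, had a mean log2 ratio of 0.37 ± 0.22 (SD, n = 4). On the other side STB6 had no value on any array and OSI1 had a mean of -0.27 ± 0.33 (SD, n = 4). The low value was thus not shared by the neighbours that were measured. Of all frames, 35 had values on both arrays with bre1 in Cy5 and on neither of the others, as LHS1 did, and 31 had the opposite pattern, as BRE1 did.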
